A study of Mus musculus with 71 samples.

Results

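The SLAM family is a set of surface receptors of the immunoglobulin superfamily on blood cells. The 8 members described here are Slamf1 (CD150), Slamf6 (Ly108), Slamf7 (CRACC), Slamf8, Slamf9, Cd48, Cd84 and Ly9 (CD229). They were taken by name, all 8 of them, from the 25579 genes quantified in pro-B cells and B-lineage progenitors with altered Pax5 alleles. The same 8 are among the 24420 genes quantified in early T-lineage cells. 7 members passed the filter on low values, which required a level of at least 1 TPM, a length-corrected unit of transcript abundance, in a sample, in the main pro-B comparisons, and Slamf8 stayed below it in every one of those samples.

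Most SLAM receptors bind a copy of themselves on a neighbouring cell, so that haematopoietic cells engage them on one another. CD48, which is anchored in the membrane by a lipid, is an exception and binds CD2 and CD244 (2B4). CD244 is itself a member of the family and is followed here with the partners (gene Cd244a). The cytoplasmic tails of Slamf1, Slamf6, Slamf7, Cd84, Ly9 and CD244 carry tyrosine motifs. Depending on the receptor, these recruit the small adaptors SAP (Sh2d1a), EAT-2 (Sh2d1b1) or both. Cd48, Slamf8 and Slamf9 lack such tails. SAP brings the kinase Fyn to the receptor, with Vav1 and protein kinase C theta (Prkcq) downstream, and in its absence phosphatases can occupy the same motifs. Slamf1 and Slamf6 with SAP are known for the selection of innate-like T cells in the thymus, and CD150 and CD48 are used to sort haematopoietic stem cells. Pax5 is the transcription factor that commits progenitors to the B lineage.

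All samples were poly(A) RNA-seq libraries of sorted cells from C57BL/6 mice. The main pro-B series comprised 5 samples of Pax5(+/+) pro-B cells and 2 samples each of the genotypes Pax5(DOP/DOP) and Pax5(DHD/DHD), of Pax5(DOP,HD/DOP,HD), and of Pax5(DCRD2/DCRD2), Pax5(DCRD2/-), Pax5(DCRD1/DCRD1), Pax5(DCRD1/-), Pax5(DCRD1,2/DCRD1,2), Pax5(DCRD1,2/-) and Vav-Cre Pax5(fl/fl) cells. D stands for a germline deletion in the Pax5 protein: OP is the octapeptide, HD the partial homeodomain, and CRD1 and CRD2 are parts of the C-terminal regulatory domain. The minus sign is the Pax5 null allele, so these cells carry a single copy of the mutant allele. Vav-Cre deletes floxed alleles in blood stem cells and thus in all blood lineages, so the Vav-Cre Pax5(fl/fl) cells developed without Pax5. A second experiment, with controls of its own, held 2 samples each of Vav-Cre Pax5(fl/+) pro-B cells, which keep a wild-type allele, Vav-Cre Pax5(Prd/fl) progenitors, whose remaining allele encodes little more than the DNA-binding paired domain, and Vav-Cre Pax5(fl/fl) progenitors. The T-lineage samples were wild-type LMPP (lymphoid-primed multipotent progenitors of bone marrow, n = 2), DN1, DN2a and DN2b (n = 3 each, of which 2 carry the same replicate number), DN3a and DN3b (n = 2 each) thymocytes, and DN3a thymocytes of Rag2(-/-) mice (n = 2), which cannot rearrange antigen receptor genes. DN means double-negative for CD4 and CD8, and the stages follow each other from DN1 to DN3b. Mice sorted for Pax5(DCRD1/-) and Pax5(DCRD1,2/-) cells were 3 to 5 weeks old per the study's legends. Its flow-cytometry legends place bone marrow of Pax5(+/+) mice and of mice homozygous for the OP, HD and CRD deletions within these ages. The age of the mice sorted for the other RNA samples is not given in the sources used here.

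By the study's methods, Pax5(DCRD1,2/-) cells and the Vav-Cre Pax5(fl/fl) cells of the main series were sorted with another gate (which included Ly6D+ Kit-high B220+, lineage-negative) than Pax5(+/+), Pax5(DCRD1/-) and Pax5(DCRD2/-) cells (whose gate included B220+ Kit+ CD2- IgM- IgD-). Pro-B cells of Pax5(DCRD1,2/DCRD1,2) mice were defined by the Ly6D+ gate in the study, but the gate of their RNA samples is not given in the sources used here. Both progenitor groups of the second experiment are labelled only as gated in an alternative way. In all these groups the effect of the genotype and that of a different gate cannot be told apart. In bulk libraries, fewer cells of a type and less RNA per cell also cannot be told apart. Depth was 10018678 to 43784791 recovered reads. Total Pax5 mRNA was at 342 to 524 TPM in Pax5(+/+) samples and at 1609 to 1697 TPM in Vav-Cre Pax5(fl/fl) samples. The floxed allele loses only a piece of the gene, so this total is no check of its deletion. Over the same 2 groups, the summed level of the 9 B-lineage markers was 19155 to 24177 against 7140 to 7766 TPM, of 4 progenitor markers 80.8 to 111 against 672 to 808, of 9 T-lineage markers (Lck among them) 152 to 176 against 550 to 573, of 7 plasmacytoid dendritic cell markers 361 to 416 against 1017 to 1677, of 8 granulocyte markers 614 to 6027 against 493 to 3890, of 10 macrophage markers 45.3 to 101 against 54.8 to 58.2, of 6 NK markers 19.9 to 40.6 against 41.8 to 86.8, and of the 3 erythroid markers found 82.9 to 294 against 14.03 to 34.7. The 4 progenitor markers (Kit, Flt3, Cd34 and Ly6a) did not move alike. Kit was at 52.9 to 75.1 against 51.3 to 61.1 TPM and Flt3 at 11.3 to 21.2 against 428 to 500 TPM. The study lists Flt3 and Ly6a among genes that Pax5 represses. In this sum a change of cells and a change of these genes cannot be told apart. The part of all these markers in the results below was not tested. Of the 3 samples each of DN1, DN2a and DN2b, the 2 that carry the same number have library numbers of their own and may be 1 replicate, while the tests count them as 2. Nothing in the labels says that replicates came from separate animals, so p-values measure the spread between these samples, which may be technical.

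All 8 members lie on chromosome 1, and 6 of them stand side by side with Cd244a, the gene of the CD48 partner CD244. In GRCm38.p6 coordinates of RefSeq, Ly9 spans chr1:171588613-171607410, Slamf7 chr1:171632403-171653037, Cd48 chr1:171681245-171705258, Slamf1 chr1:171767131-171801184, Cd84 chr1:171839697-171890718 and Slamf6 chr1:171917458-171948958. Slamf9 (chr1:172458569-172478421) and Slamf8 (chr1:172581377-172590873) lie farther along the same chromosome. Cd244a lies next to Ly9, at chr1:171558718-171585316.

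The promoters of 4 members are shown because Slamf6 and Slamf7 carry the largest changes below, Slamf1 lies between them at a low level, and Cd48 is their abundant neighbour whose level did not pass the test between genotypes. Each run holds 300 bases on the coding strand, 250 before a transcript start and 50 after it, as listed from RefSeq on GRCm38.p6. The start used for Slamf7 lies 4038 bases and that for Cd48 747 bases inside the gene's span given above, so these windows are not at the outermost start. Capitals mark E-boxes (CANNTG), the motif of basic helix-loop-helix factors.
Slamf6 promoter, chr1:171917212-171917511, plus strand: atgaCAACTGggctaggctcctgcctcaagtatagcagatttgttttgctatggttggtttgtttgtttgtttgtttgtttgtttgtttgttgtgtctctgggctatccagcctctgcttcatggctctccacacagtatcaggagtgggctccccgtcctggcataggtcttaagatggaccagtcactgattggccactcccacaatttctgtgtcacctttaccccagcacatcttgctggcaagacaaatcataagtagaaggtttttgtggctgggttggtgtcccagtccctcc
Slamf7 promoter, chr1:171648950-171649249, minus strand: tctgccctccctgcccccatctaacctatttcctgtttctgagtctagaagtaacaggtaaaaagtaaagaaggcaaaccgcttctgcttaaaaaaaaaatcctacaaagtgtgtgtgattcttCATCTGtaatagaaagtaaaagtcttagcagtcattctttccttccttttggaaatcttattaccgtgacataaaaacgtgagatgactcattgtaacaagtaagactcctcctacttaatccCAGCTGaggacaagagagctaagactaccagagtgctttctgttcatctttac
Slamf1 promoter, chr1:171766882-171767181, plus strand: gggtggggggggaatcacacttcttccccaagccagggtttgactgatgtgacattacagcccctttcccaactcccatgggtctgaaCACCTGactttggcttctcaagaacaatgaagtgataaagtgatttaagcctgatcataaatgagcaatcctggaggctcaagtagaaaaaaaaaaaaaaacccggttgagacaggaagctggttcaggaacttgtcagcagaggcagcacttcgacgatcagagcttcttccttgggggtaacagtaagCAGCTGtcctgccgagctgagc
Cd48 promoter, chr1:171681742-171682041, plus strand: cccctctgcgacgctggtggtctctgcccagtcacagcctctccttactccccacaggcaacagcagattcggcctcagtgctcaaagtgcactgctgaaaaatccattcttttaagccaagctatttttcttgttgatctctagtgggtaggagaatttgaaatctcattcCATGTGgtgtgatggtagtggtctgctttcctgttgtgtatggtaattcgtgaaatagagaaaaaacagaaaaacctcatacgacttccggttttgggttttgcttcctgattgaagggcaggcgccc
A promoter was found for 7 of the 8 members, all but Ly9. Those of Slamf9 and Slamf8 also lie inside the gene's span, by 16791 and 305 bases. The 7 windows held 1 E-box each in Slamf6, Cd48 and Cd84, 2 each in Slamf7 and Slamf1, and 5 each in Slamf8 and Slamf9. An E-box was present in 72.1% of the 27025 gene promoters searched, so its presence in the members is common. The core GCGTGAC, a match to part of the sequence bound by the Pax5 paired domain, was searched on both strands and was in 0 of the 7 windows, against 2.23% of all promoters. A match is a description of letters only, and no match says only that these letters are not in these windows.

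In Pax5(+/+) pro-B cells the family was dominated by Slamf6 and Slamf7, which together made up most of its transcripts. Slamf6 was at 188, 231, 125, 195 and 129 TPM in samples 1 to 5, and Slamf7 at 199, 211, 123, 177 and 123 TPM. Cd48 stood at 132, 149, 65.2, 120 and 67.5 TPM and Ly9 at 70.8, 60.9, 60.0, 78.5 and 54.7 TPM. Samples 3 and 5 were the lowest for Slamf6, Slamf7, Cd48 and Cd84, and the summed family level ranged from 383 to 675 TPM. The shares of Slamf6 and Slamf7 within the family were steadier than their levels. Slamf6 took 32.8% of the family's TPM (30.6 to 34.1%), Slamf7 31.5% (30.2 to 32.4%), Cd48 19.7% (17.0 to 22.1%) and Ly9 12.8% (9.02 to 15.7%). Slamf6 and Slamf7 did not differ in level beyond their spread, and both stood above Ly9 in each of the 5 samples.

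The remaining members were low in Pax5(+/+) cells. Cd84, a self-binding receptor, was at 5.03 to 14.3 TPM with a median of 10.6. Slamf9 was at 2.70 to 10.4 TPM with a median of 4.45. Slamf1 was at 0.695 to 2.14 TPM and Slamf8 at 0.158 to 0.619 TPM. Over the 31 samples of both Pax5 experiments Slamf1 rested on 1 to 77 reads per sample, with a median of 24, and Slamf8 on 2 to 23, so changes of either are known with little precision. Slamf6 rested on 289 to 8080 reads, Slamf7 on 98 to 10877, Cd48 on 515 to 2660 and Ly9 on 1021 to 4677.

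**Figure D1:**
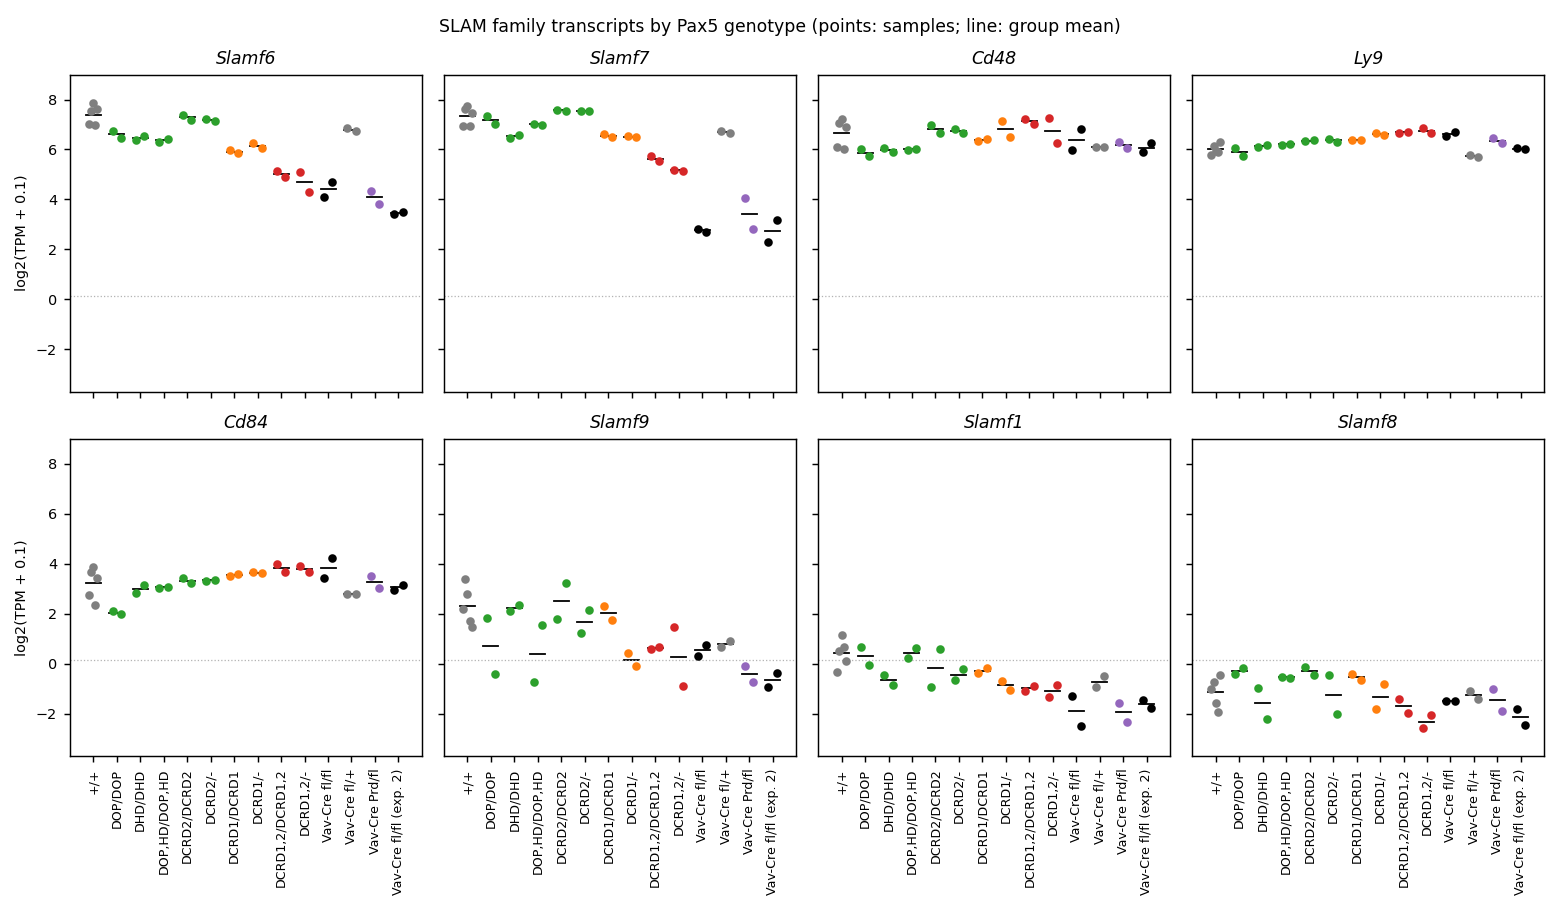
Levels of the 8 members in each sample of both Pax5 experiments, as log2(TPM + 0.1) on the vertical axis, by genotype on the horizontal axis. Points are samples, the short line is the group mean and the dotted line marks 1 TPM. Slamf6 and Slamf7 fall from 123 TPM or more in all Pax5(+/+) samples to at most 26.0 TPM in the Pax5-deficient samples, while Ly9 and Cd48 stay between 52.5 and 151 TPM in all genotypes.

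Loss of Pax5 was addressed by 2 separate comparisons, Vav-Cre Pax5(fl/fl) against Pax5(+/+) cells and, in the second experiment, Vav-Cre Pax5(fl/fl) against Vav-Cre Pax5(fl/+) cells. Slamf7 and Slamf6 fell in both, Slamf9 fell from a low level in both, Ly9 rose in the first, and neither Cd48 nor Cd84 passed the test in either. Fold changes are on the log2(TPM + 0.1) scale, from limma with a term for read length in the main series, and adjusted p-values are Benjamini-Hochberg values over all genes tested.

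Slamf7 was at 6.89 and 6.44 TPM in the Vav-Cre Pax5(fl/fl) samples, far below the 123 to 211 TPM of the Pax5(+/+) samples, with no overlap. The fitted fall was 25.6-fold (log2 fold change -4.68 ± 0.22 SE, adjusted p = 1.07e-07). In the second experiment it was at 4.77 and 9.01 TPM against 105 and 101 TPM, a fall of 15.5-fold (log2 fold change -3.96 ± 0.44 SE, adjusted p = 0.000874). Slamf6 was at 16.9 and 26.0 TPM in Vav-Cre Pax5(fl/fl) cells, again below every Pax5(+/+) sample. Its fitted fall was 8.41-fold (log2 fold change -3.07 ± 0.30 SE, adjusted p = 2.05e-05). In the second experiment it was at 10.5 and 11.3 TPM against 115 and 105 TPM, a fall of 10.1-fold (log2 fold change -3.33 ± 0.18 SE, adjusted p = 6.17e-05). Among Pax5(+/+) samples read at the same length of 50 nt as the Vav-Cre Pax5(fl/fl) samples, Slamf6 was at 182 ± 51.0 TPM and Slamf7 at 177 ± 47.8 TPM (SD, n = 3).

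Slamf9, a receptor with a short tail, was at 1.13 and 1.60 TPM in Vav-Cre Pax5(fl/fl) cells, below the lowest Pax5(+/+) sample at 2.70 TPM (log2 fold change -2.26 ± 0.61 SE, adjusted p = 0.0152). The call was lost without either Vav-Cre Pax5(fl/fl) sample (adjusted p = 0.111 and 0.0565) or without Pax5(+/+) sample 1 (0.055). Controls of the second experiment had 1.49 and 1.77 TPM and Vav-Cre Pax5(fl/fl) cells 0.423 and 0.673 TPM (log2 fold change -1.44 ± 0.42 SE, adjusted p = 0.0341), a call lost without any 1 of these 4 samples (adjusted p = 0.0613 to 0.146). Slamf9 passed the filter of the second experiment only through these controls. Slamf1 passed the filter of the main fit only through Pax5(+/+) samples, so it entered the test through the group where it was high. The other samples of that fit were at most at 0.752 TPM. In Vav-Cre Pax5(fl/fl) cells Slamf1 was at 0.301 and 0.0757 TPM, which are 8 reads and 1 read. Its fall passed the test (log2 fold change -2.36 ± 0.55 SE, adjusted p = 0.00684). That call rests on Vav-Cre Pax5(fl/fl) sample 2, the shallowest library, without which the log2 fold change was -1.77 and the adjusted p 0.0645. Slamf1 did not reach the filter in the second experiment, where it was at 0.416 and 0.609 TPM in controls and at 0.265 and 0.192 TPM in Vav-Cre Pax5(fl/fl) cells.

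Ly9, which is expressed on most lymphocytes, moved the other way. It was at 91.8 and 103 TPM in Vav-Cre Pax5(fl/fl) cells, above all 5 Pax5(+/+) samples, a rise of 1.57-fold (log2 fold change 0.65 ± 0.15 SE, adjusted p = 0.00607), a call lost without Vav-Cre Pax5(fl/fl) sample 2 (adjusted p = 0.0588). Its 66.0 and 65.1 TPM in Pax5-deficient cells of the second experiment stood above the 55.3 and 52.5 TPM of the controls, but the difference missed the threshold (log2 fold change 0.28 ± 0.10 SE, adjusted p = 0.0562). Cd48 was at 62.1 and 112 TPM, the first just below the lowest Pax5(+/+) sample at 65.2 TPM and the second within the range (log2 fold change -0.40, 95% interval -1.32 to 0.52), and in the second experiment at 58.9 and 76.1 against 69.3 and 69.3 TPM (log2 fold change -0.05, 95% interval -0.40 to 0.30). Cd84 was at 10.6 and 18.6 TPM (log2 fold change 0.40, 95% interval -0.44 to 1.23). Slamf8 was at 0.255 and 0.256 TPM.

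Of the 7 members tested, 5 passed in the main series, 4 lower and 1 higher, where 31.7% of the 13637 genes tested passed. Of 6 members tested in the second experiment 3 passed, all lower, where 39.9% of 12941 genes passed. Slamf1 in the main series and Slamf9 in the second experiment passed the filter only through the control group, where they were higher. The median log2 fold change of the members was -2.26 against 0.01 over all genes in the main series, and -0.74 against 0.00 in the second. With these changes the makeup of the family turned over: in Vav-Cre Pax5(fl/fl) cells Ly9 made up 43.4% and Cd48 37.2% of its TPM, Slamf6 9.32% and Slamf7 3.01%, and the summed level was 190 to 268 TPM. The same genotype of the second experiment had 41.2% Ly9, 42.1% Cd48, 6.81% Slamf6 and 4.24% Slamf7, against 15.6, 20.04, 31.8 and 29.9% in its controls.

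**Figure D2:**
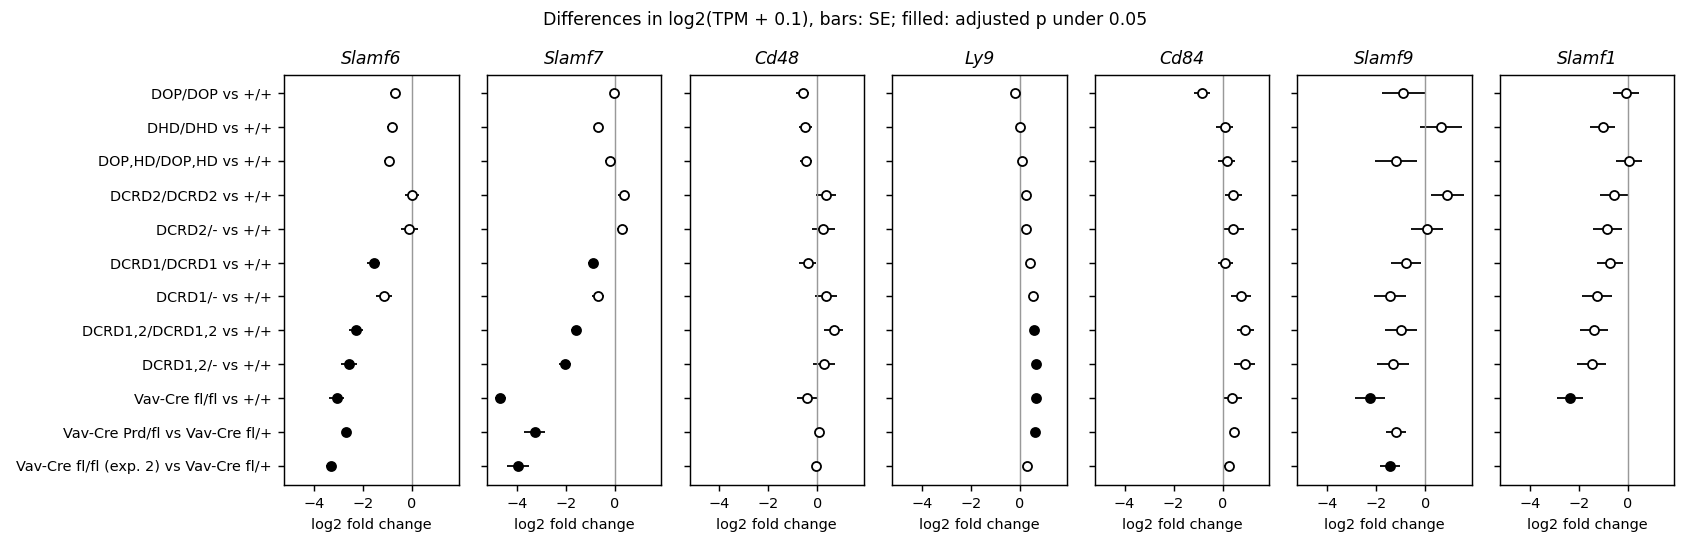
Log2 fold change of the 7 members that could be tested, on the horizontal axis, in 12 comparisons between genotypes on the vertical axis. Points are fitted values, bars are standard errors and filled points passed an adjusted p of 0.05. Slamf7 and Slamf6 lie farthest to the left of 0, down to -4.68 and -3.33, and the passing values of Ly9 lie between 0.59 and 0.65.

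Deletion of the whole C-terminal regulatory domain, CRD1 with CRD2, was compared with wild type in cells with 2 mutant alleles or 1. Slamf6 and Slamf7 fell and Ly9 rose in both. In Pax5(DCRD1,2/-) cells Slamf6 was at 34.0 and 19.7 TPM (log2 fold change -2.59 ± 0.33 SE, adjusted p = 0.00029), Slamf7 at 36.5 and 35.1 TPM (log2 fold change -2.04 ± 0.24 SE, adjusted p = 0.000174) and Ly9 at 115 and 101 TPM (log2 fold change 0.65 ± 0.16 SE, adjusted p = 0.0164). In Pax5(DCRD1,2/DCRD1,2) cells Slamf6 was at 34.9 and 29.4 TPM (log2 fold change -2.28 ± 0.28 SE, adjusted p = 7.37e-05), Slamf7 at 52.8 and 45.9 TPM (log2 fold change -1.58 ± 0.22 SE, adjusted p = 0.000179) and Ly9 at 102 and 105 TPM (log2 fold change 0.59 ± 0.14 SE, adjusted p = 0.00835). Both genotypes lay below every Pax5(+/+) sample for Slamf6 and Slamf7 and above every one for Ly9. Without Pax5(+/+) sample 3 the rise of Ly9 missed the threshold, at an adjusted p of 0.126 in Pax5(DCRD1,2/-) and 0.0943 in Pax5(DCRD1,2/DCRD1,2) cells, and so it did without Pax5(DCRD1,2/-) sample 1 (0.115) or Pax5(DCRD1,2/DCRD1,2) sample 2 (0.059).

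These were 3 of 7 members each, where 20.2% of genes passed in Pax5(DCRD1,2/-) and 24.6% in Pax5(DCRD1,2/DCRD1,2) cells. The median log2 fold change of the members was -1.32 and -0.98, against -0.04 and 0.00 over all genes. Slamf1, at 0.298 and 0.453 TPM in Pax5(DCRD1,2/-) and 0.370 and 0.440 TPM in Pax5(DCRD1,2/DCRD1,2) cells, did not pass (log2 fold change -1.47 ± 0.60 SE, adjusted p = 0.114 and -1.37 ± 0.58 SE, adjusted p = 0.104). Cd48 was at 151 and 77.2 TPM and at 150 and 131 TPM, so its samples overlapped the wild type. Cd84 was at 15.1 and 12.5 TPM and at 15.7 and 12.6 TPM, and Slamf9 at 2.63 and 0.439 TPM and at 1.39 and 1.46 TPM, without passing. The progenitor marker sum was 569 to 654 TPM in Pax5(DCRD1,2/-) and 596 to 694 TPM in Pax5(DCRD1,2/DCRD1,2) cells, and its part in these differences was not tested.

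In Pax5(DCRD1/DCRD1) cells, which are labelled pro-B cells like the wild type, Slamf6 and Slamf7 were lower as well. Slamf6 was at 62.5 and 57.5 TPM, below all Pax5(+/+) samples (log2 fold change -1.56 ± 0.26 SE, adjusted p = 0.00215), and Slamf7 at 97.6 and 89.3 TPM, also below all (log2 fold change -0.89 ± 0.20 SE, adjusted p = 0.015). Ly9 was at 82.0 and 82.3 TPM and missed the threshold (log2 fold change 0.41 ± 0.13 SE, adjusted p = 0.0728). That made 2 of 7 members, where 8.16% of genes passed. On recovered reads edgeR and DESeq2 each called 3 members, and 1225 and 1646 of all genes. The progenitor marker sum was 270 to 303 TPM, above the 80.8 to 111 TPM of the wild type, and its part in these differences was not tested. Of this sum, Kit was at 92.8 to 111 TPM and Flt3 at 27.7 to 27.8 TPM. The call of Slamf7 was lost without either Pax5(DCRD1/DCRD1) sample (adjusted p = 0.0998 and 0.141) or without Pax5(+/+) sample 1 or 2 (0.054 and 0.0515), while that of Slamf6 held without each sample in turn.

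In Pax5(DCRD1/-) cells Slamf6 was at 75.6 and 66.9 TPM (log2 fold change -1.14 ± 0.33 SE, adjusted p = 0.0594) and Slamf7 at 93.8 and 89.2 TPM (log2 fold change -0.69 ± 0.24 SE, adjusted p = 0.108). Ly9 was at 102 and 94.9 TPM (log2 fold change 0.52 ± 0.16 SE, adjusted p = 0.0776). By limma 0 of 7 members passed, where 8.51% of genes passed. These 3 members had an unadjusted p under 0.05, and edgeR and DESeq2 on recovered reads each called 3 members. Of all 13637 genes 2873 had an unadjusted p under 0.05, and edgeR called 1393 and DESeq2 1905. For Slamf6 and Slamf7 both samples of this genotype lay below the lowest wild-type sample, so the test leaves their difference undecided. The progenitor markers summed to 388 to 445 TPM in these cells, and their part was not tested.

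After deletion of CRD2 alone no member passed the test. Slamf6 was at 166 and 145 TPM in Pax5(DCRD2/DCRD2) and at 149 and 142 TPM in Pax5(DCRD2/-) cells, and Slamf7 at 193 and 186 and at 184 and 184 TPM. In both comparisons 0 of 7 members passed by limma, none had an unadjusted p under 0.05, and edgeR and DESeq2 called 0. The background was 0.0956% of genes in Pax5(DCRD2/DCRD2) and 0.513% in Pax5(DCRD2/-) cells. The 95% intervals of the log2 fold change of Slamf6 were -0.62 to 0.60 and -0.83 to 0.62, and those of Slamf7 -0.11 to 0.83 and -0.21 to 0.84, so a change of the size seen without CRD1 and CRD2 lies outside them. Ly9 was at 79.98 and 82.1 TPM in Pax5(DCRD2/DCRD2) and at 85.5 and 79.4 TPM in Pax5(DCRD2/-) cells, each above the highest Pax5(+/+) sample at 78.5 TPM (95% intervals of the log2 fold change -0.07 to 0.54 and -0.09 to 0.62). Granulocyte markers summed to 503 to 7589 TPM in Pax5(DCRD2/DCRD2) and 905 to 14033 TPM in Pax5(DCRD2/-) cells, and their part was not tested.

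The mutants were also compared with each other. Pax5(DCRD1,2/-) cells had less Slamf6 (log2 fold change -1.46 ± 0.33 SE, adjusted p = 0.0493) and less Slamf7 (log2 fold change -1.35 ± 0.24 SE, adjusted p = 0.0154) than Pax5(DCRD1/-) cells, 2 of 7 members where 2.17% of genes passed. Both were sequenced at the same read length, but their gates differed. The samples did not overlap for either gene. The call of Slamf6, close to the threshold, was lost without any 1 of the 4 samples of these genotypes (adjusted p = 0.0604 to 0.31) and in most other alternatives, and that of Slamf7 without any 1 of the 4 as well (adjusted p = 0.0741 to 0.15). Between Pax5(DCRD1,2/DCRD1,2) and Pax5(DCRD1/DCRD1) cells, which differ in read length and may differ in gate, 0 of 7 members passed (1.71% of genes), with Slamf7 alone under an unadjusted p of 0.05 and 0 calls by edgeR and DESeq2. Of all 13598 genes 2034 had an unadjusted p under 0.05, and edgeR called 333 and DESeq2 642. The log2 difference was -0.72 (95% interval -1.55 to 0.10) for Slamf6 and -0.70 (95% interval -1.34 to -0.06) for Slamf7.

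Slamf7 also set Vav-Cre Pax5(fl/fl) cells apart from Pax5(DCRD1,2/-) cells, which shared a gate. Its 6.89 and 6.44 TPM against 36.5 and 35.1 TPM gave a fitted difference of 6.21-fold (log2 fold change -2.63 ± 0.32 SE, adjusted p = 0.00366), the 1 member of 7 to pass where 2.02% of genes passed. These groups differ in read length, which the fit corrects from the wild-type samples. Slamf6 did not pass, at 16.9 and 26.0 against 34.0 and 19.7 TPM, whose samples overlapped (log2 fold change -0.48, 95% interval -1.46 to 0.50).

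Copy number of the mutant allele was tested by comparing cells with 1 and with 2 mutant alleles. For CRD2, CRD1 and CRD1,2 deletions, 0 of 7 members passed, none had an unadjusted p under 0.05, and edgeR and DESeq2 called 0. Over all genes 0.272%, 0% and 0.228% passed. Without CRD1 the 0 of 13598 genes stood beside 819 at an unadjusted p under 0.05, 19 called by edgeR and 99 by DESeq2. The 2 CRD1 groups differ in read length, which the fit corrects from the wild-type samples. The median SE over all genes was 0.305 there, against 0.225 in the CRD2 and CRD1,2 comparisons. The 2 CRD1,2 groups may differ in gate. The differences between Pax5(DCRD1,2/-) and Pax5(DCRD1,2/DCRD1,2) cells were -0.46 for Slamf7 (95% interval -0.93 to 0.01) and -0.31 for Slamf6 (95% interval -0.92 to 0.30) in log2 units. Whether the step from the CRD1 to the CRD1,2 deletion depended on copy number was tested by an interaction term, which no member passed (0 of 7, none at an unadjusted p under 0.05, 0 by edgeR and DESeq2, against 0.0294% of genes). The interaction rests on the same correction of read length. Its estimate was -0.74 for Slamf6 (95% interval -1.76 to 0.29) and -0.66 for Slamf7 (95% interval -1.45 to 0.14).

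Vav-Cre Pax5(Prd/fl) progenitors, which keep the paired domain, resembled the Pax5-deficient cells of the same experiment in the direction of Slamf6 and Slamf7. Slamf6 was at 20.3 and 13.9 TPM (log2 fold change against Vav-Cre Pax5(fl/+) cells -2.70 ± 0.18 SE, adjusted p = 0.000111) and Slamf7 at 16.5 and 6.88 TPM (log2 fold change -3.26 ± 0.44 SE, adjusted p = 0.0018). Ly9 rose to 87.7 and 75.8 TPM (log2 fold change 0.60 ± 0.10 SE, adjusted p = 0.00362). That was 3 of 6 members, 2 lower and 1 higher, where 40.7% of genes passed. Slamf9, at 0.843 and 0.499 TPM, missed the threshold (log2 fold change -1.20 ± 0.42 SE, adjusted p = 0.06), and Cd84, at 11.3 and 8.07 TPM, did as well (log2 fold change 0.48 ± 0.19 SE, adjusted p = 0.0878).

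Vav-Cre Pax5(Prd/fl) and Vav-Cre Pax5(fl/fl) cells shared controls and the label of an alternative gate and were compared directly. By limma 0 of 6 members passed, where 1.97% of genes passed. Slamf6 and Ly9 had an unadjusted p under 0.05, edgeR called 0 and DESeq2 called 1 member. Of all 12941 genes 2520 had an unadjusted p under 0.05, and edgeR called 470 and DESeq2 1011. For Slamf6 the log2 difference was 0.63 (95% interval 0.20 to 1.06) and for Ly9 0.32 (95% interval 0.09 to 0.54), and for both genes the 2 Vav-Cre Pax5(Prd/fl) samples stood above the 2 Vav-Cre Pax5(fl/fl) samples. For Slamf7 it was 0.69 (95% interval -0.36 to 1.74). Leaving out Vav-Cre Pax5(Prd/fl) sample 2 gave 2 members that passed.

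The central domains were tested against the 2 Pax5(+/+) samples that share their read length, samples 3 and 4. A shared read length does not show that these samples were sequenced together with the mutants. No member passed in Pax5(DOP/DOP), Pax5(DHD/DHD) or Pax5(DOP,HD/DOP,HD) cells by limma, 0 of 7 each, where 0.485%, 0.639% and 1.22% of genes passed. Slamf6 lay below both of these Pax5(+/+) samples in each: 107 and 88.8 TPM in Pax5(DOP/DOP), 83.5 and 92.4 TPM in Pax5(DHD/DHD) and 78.3 and 85.8 TPM in Pax5(DOP,HD/DOP,HD) cells, all below the 125 TPM of the lowest Pax5(+/+) sample. The log2 fold changes were -0.68 ± 0.20 SE (adjusted p = 0.14), -0.83 ± 0.20 SE (adjusted p = 0.142) and -0.93 ± 0.20 SE (adjusted p = 0.0849). Slamf6 had an unadjusted p under 0.05 in all 3 comparisons, with Cd48 and Cd84 in Pax5(DOP/DOP) and Slamf7 in Pax5(DHD/DHD) cells, so that 3, 2 and 1 members did. edgeR called 0, 2 and 1 members and DESeq2 2, 2 and 1. The background was 2531, 1592 and 1815 of 12996 genes at an unadjusted p under 0.05. It was 182, 201 and 255 genes by edgeR and 954, 463 and 537 by DESeq2. Slamf7 was at 162 and 131 TPM in Pax5(DOP/DOP), 88.9 and 96.0 TPM in Pax5(DHD/DHD) and 131 and 125 TPM in Pax5(DOP,HD/DOP,HD) cells. Pax5(DOP/DOP) samples held 112 to 118 TPM of macrophage and 5429 to 5674 TPM of granulocyte markers. Pax5(DOP,HD/DOP,HD) samples held 57.3 to 112 and 481 to 5478 TPM, and Pax5(DHD/DHD) samples 27.1 to 31.4 and 346 to 1442 TPM. All Pax5(+/+) samples together held 45.3 to 101 and 614 to 6027 TPM. The part of these markers in the values was not tested.

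Among its chromosomal neighbours the SLAM cluster did not move as a block. The annotation has 52 other genes between the outermost members and 200 kb to either side, 32 of which are in the files. In Vav-Cre Pax5(fl/fl) against Pax5(+/+) cells 22 of them were tested, 3 were higher (Arhgap30, Cd244a and Dcaf8) and 5 lower (F11r, Fcrl6, Gm37065, Igsf8 and Mir7683), with a median log2 fold change of -0.09. Among all genes 31.7% passed. Gm37065 overlaps Slamf6 and Mir7683 lies within Slamf7, so without a stated strand setting their reads cannot be told apart from those of the members. Cd244a, 212 kb from Slamf1 on one side, rose (log2 fold change 2.20 ± 0.25 SE, adjusted p = 6.14e-05), Ly9 next to it rose, Slamf7 fell, Cd48 did not pass, and Slamf6, 149 kb from Slamf1 on the other side, fell. In Pax5(DCRD1,2/-) cells 1 neighbour was higher (Cd244a) and 5 lower (F11r, Fcrl6, Igsf8, Pea15a and Vangl2), where 20.2% of all genes passed. Of the neighbours, 2 were higher and 9 lower in Vav-Cre Pax5(fl/fl) cells of the second experiment, Cd244a, F11r, Fcrl6 and Igsf8 among them in the same directions. The share of all genes that passed there was 39.9%.

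**Figure D3:**
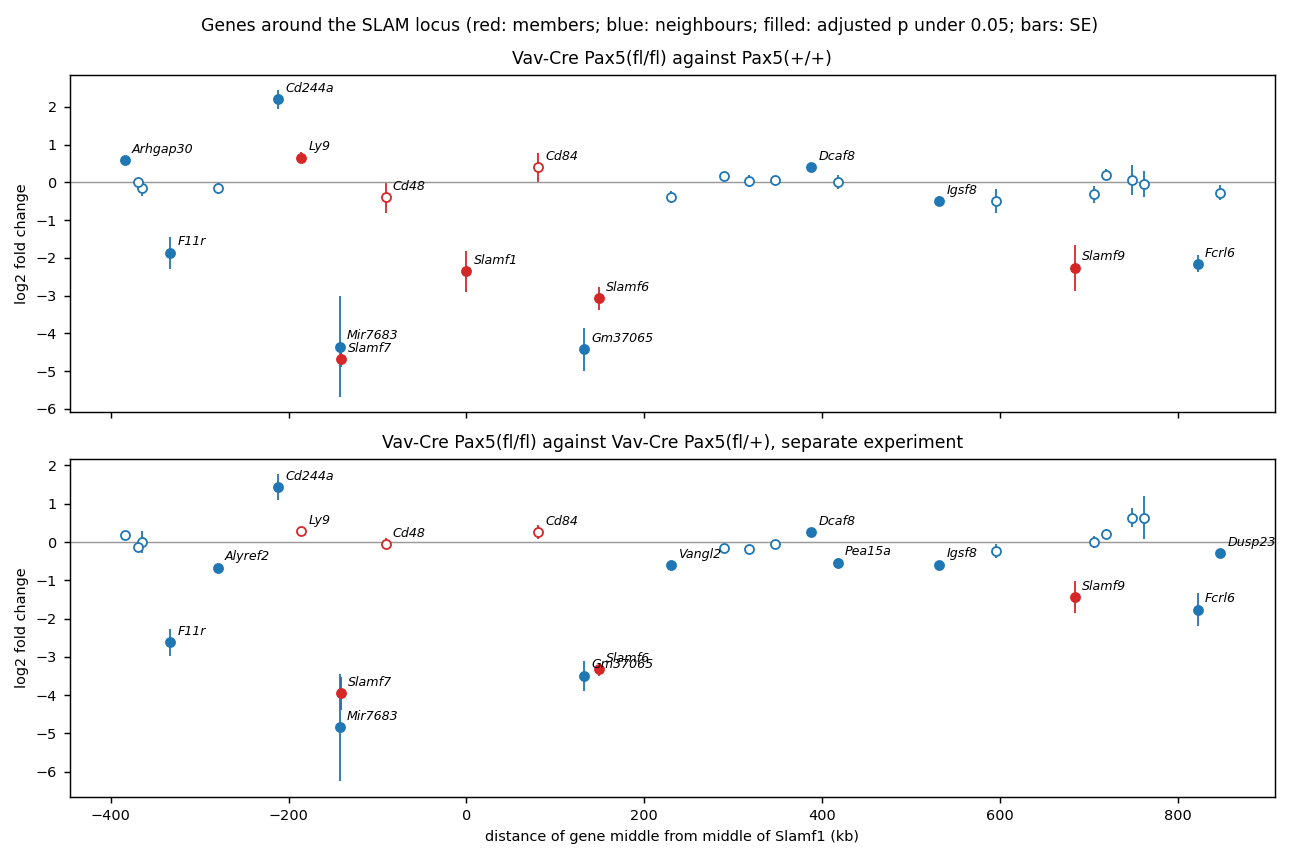
Log2 fold change (vertical axis) of the members, in red, and of the other genes tested around them, in blue, by distance in kb of the gene's middle from the middle of Slamf1 (horizontal axis), for Vav-Cre Pax5(fl/fl) cells in the main series and in the second experiment. Strongly lower members (Slamf7 at -4.68, Slamf6 at -3.07 in the main series) alternate with Cd48 and Cd84, which did not pass, and with Cd244a at 2.20 and Ly9 at 0.65.

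The genes most like each member over the 31 samples of both Pax5 experiments were found by Pearson's r of log2(TPM + 0.1) among 11492 genes, given as a description without p, since the samples share genotypes and depth. Slamf6 was most like Nt5c2 (r = 0.974), Irak3 (0.968) and 9530077C05Rik (0.967), and Slamf7 most like Pcp4l1 (0.98), Otub2 (0.979) and Nedd9 (0.973). Slamf9 was most like Fam169b (0.843), Efcab2 (0.825) and Ms4a1 (0.823). Cd48 was most like Fundc2 (0.923), Arhgap15 (0.919) and Smim15 (0.916), Cd84 most like Rpf2 (0.924), Eif2a (0.921) and Ercc6l2 (0.915), and Ly9 most like Tnfaip8 (0.943), BC035044 (0.938) and Cmtr2 (0.924). Between members, r was 0.938 for Slamf6 with Slamf7, 0.766 for Cd84 with Ly9, 0.757 for Cd48 with Cd84 and -0.377 for Slamf6 with Ly9.

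The partners of the receptors were followed with a list of 16 genes. In Vav-Cre Pax5(fl/fl) against Pax5(+/+) cells 15 were tested, 5 were higher and 3 lower, with a median log2 fold change of 0.11, where 31.7% of all genes passed. Of the receptors that CD48 binds, Cd244a rose from 3.73 to 6.76 TPM in wild-type samples to 20.8 to 27.4 TPM, and Cd2, which belongs to the sorting gate, fell from 2.89 to 7.79 to 0.681 to 1.37 TPM (log2 fold change -2.05 ± 0.57 SE, adjusted p = 0.0173). Of the adaptors, Sh2d1b1 rose from 0.188 to 0.413 TPM to 4.89 to 6.36 TPM (log2 fold change 4.21 ± 0.72 SE, adjusted p = 0.00107). Sh2d1a, the gene of SAP, had no read in 21 of the 31 samples of both experiments and at most 5 reads, or 0.377 TPM, in any. A count of 0 allows up to 3 reads, which in these samples is 0.168 to 0.814 TPM and covers counting error only. Sh2d1b2, a second EAT-2-like adaptor, was at 0 TPM in the wild-type and Vav-Cre Pax5(fl/fl) samples.

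Of the kinases, Src rose from 1.44 to 2.38 TPM to 20.6 to 26.9 TPM (log2 fold change 3.52 ± 0.28 SE, adjusted p = 4.56e-06) and Lck, which is also among the T-lineage markers, from 69.2 to 89.5 to 336 to 354 TPM (log2 fold change 2.25 ± 0.11 SE, adjusted p = 1.56e-07). Prkcq fell from 9.25 to 15.2 TPM to 0.788 to 1.96 TPM (log2 fold change -3.07 ± 0.32 SE, adjusted p = 3.19e-05) and Lyn by 0.68 on the log2 scale (adjusted p = 0.00721). The phosphatase Ptpn6 (SHP-1) rose (log2 fold change 0.61 ± 0.10 SE, adjusted p = 0.000684). In Pax5(DCRD1,2/-) cells 5 were higher, Cd244a, Lck, Ptpn6, Sh2d1b1 and Src, and 2 lower, Cd2 and Prkcq, where 20.2% of all genes passed. Of 14 tested in the second experiment, in Vav-Cre Pax5(fl/fl) cells 5 were higher (Cd244a, Lck, Ptpn6, Sh2d1b1 and Src) and 5 lower (Cd2, Inpp5d, Lyn, Prkcq and Vav1), against 39.9% of all genes. In Vav-Cre Pax5(Prd/fl) cells 5 were higher and 3 lower, against 40.7% of all genes. Lck was also higher in Vav-Cre Pax5(fl/fl) than in Pax5(DCRD1,2/-) cells (log2 fold change 0.81 ± 0.16 SE, adjusted p = 0.032) and in Pax5(DCRD1,2/-) than in Pax5(DCRD1/-) cells (log2 fold change 0.72 ± 0.12 SE, adjusted p = 0.0125). Fyn, Csk, Ptpn11 and Cblb passed in none of these comparisons.

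**Figure D4:**
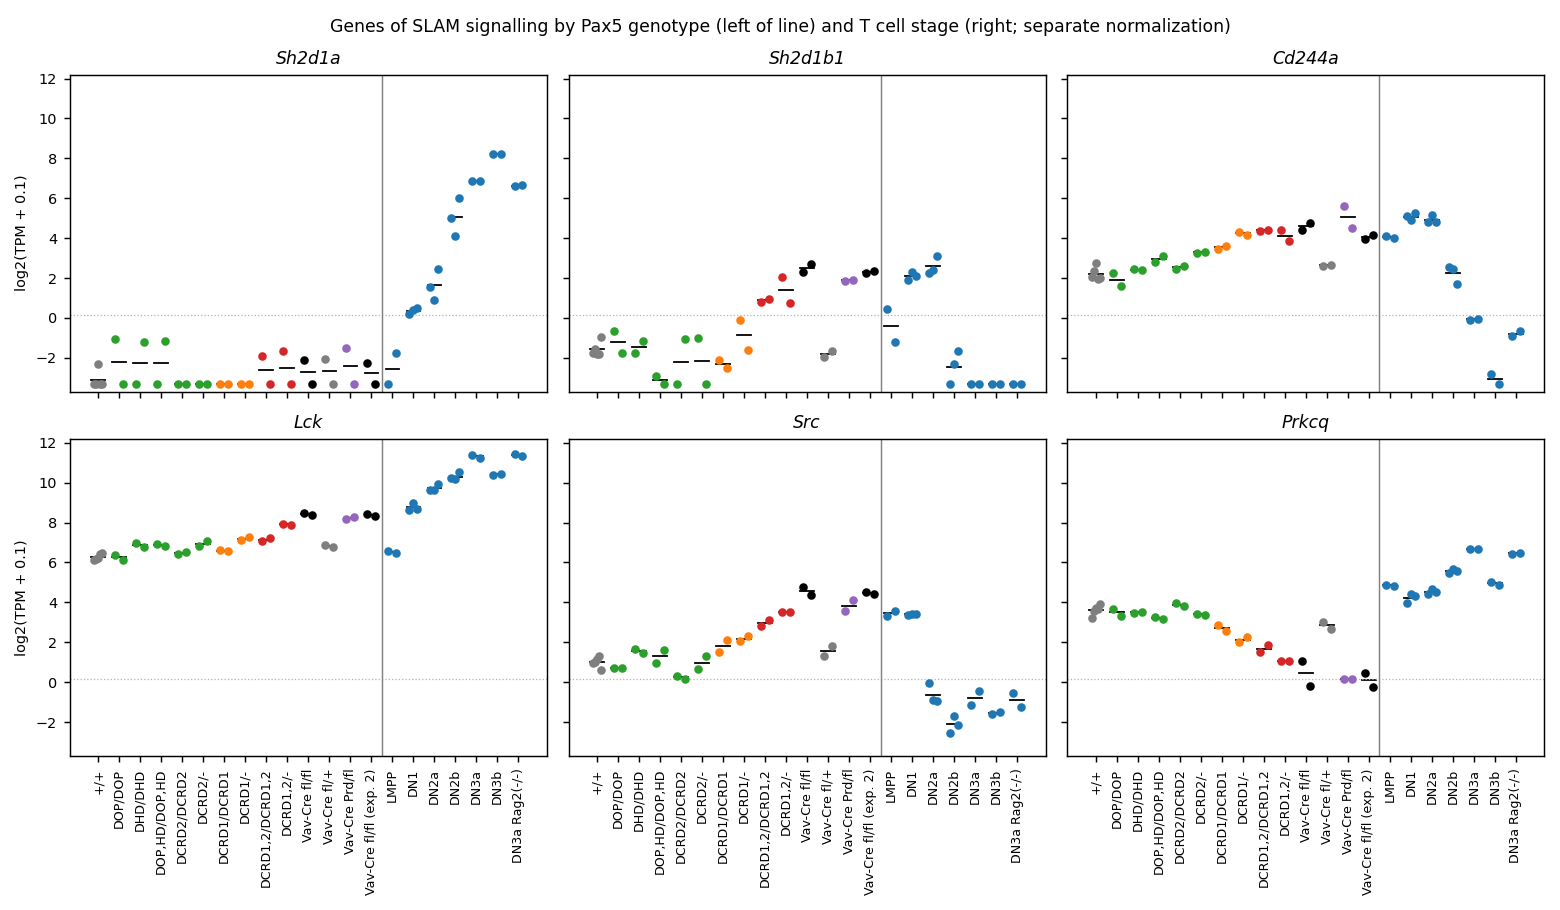
Levels of the adaptor genes Sh2d1a and Sh2d1b1, the CD48 partner Cd244a and the kinases Lck, Src and Prkcq in every sample, as log2(TPM + 0.1), by Pax5 genotype and by T-lineage stage. The T-lineage samples were normalized separately from the Pax5 samples. Sh2d1a stays at or below 0.377 TPM in all Pax5 samples and reaches 293 to 300 TPM in DN3b, whereas Cd244a is at 29.6 to 37.8 TPM in DN1 and 20.8 to 27.4 TPM in Vav-Cre Pax5(fl/fl) cells of the main series and Sh2d1b1 at 4.72 to 8.59 TPM in DN2a and 4.89 to 6.36 TPM in the same Vav-Cre Pax5(fl/fl) cells.

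In the T lineage the family was arranged differently. These samples were aligned and normalized separately, so their levels cannot be set exactly beside those of pro-B cells. By the library numbers in their labels, DN3a, DN3b and Rag2(-/-) DN3a samples each form a group apart from LMPP to DN2b. From DN2b to DN3a, from DN3a to DN3b and between Rag2(-/-) and wild-type DN3a cells, stage or genotype and library group cannot be told apart. The labelled stages matched their markers: the 9 T-lineage markers summed to 124 to 125 TPM in LMPP, 1513 to 1804 in DN1 and 20517 to 20541 in DN3a, and the 4 progenitor markers fell from 2034 to 2061 TPM in LMPP to 66.5 to 69.9 in DN3a. Granulocyte markers summed to 2141 to 2402 TPM in LMPP and 1799 to 2052 in DN1, and 2.07 to 4.58 in DN3a. Cd48 made up 49.96% of the family's TPM in LMPP, 82.9% in DN2a and 50.7% in DN3a, and Ly9 37.3% in LMPP, 7.18% in DN2a and 11.3% in DN3a. Slamf6, at 0.532% in LMPP, made up 26.9% in DN3a. 7 members were tested, all but Slamf9.

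**Figure D5:**
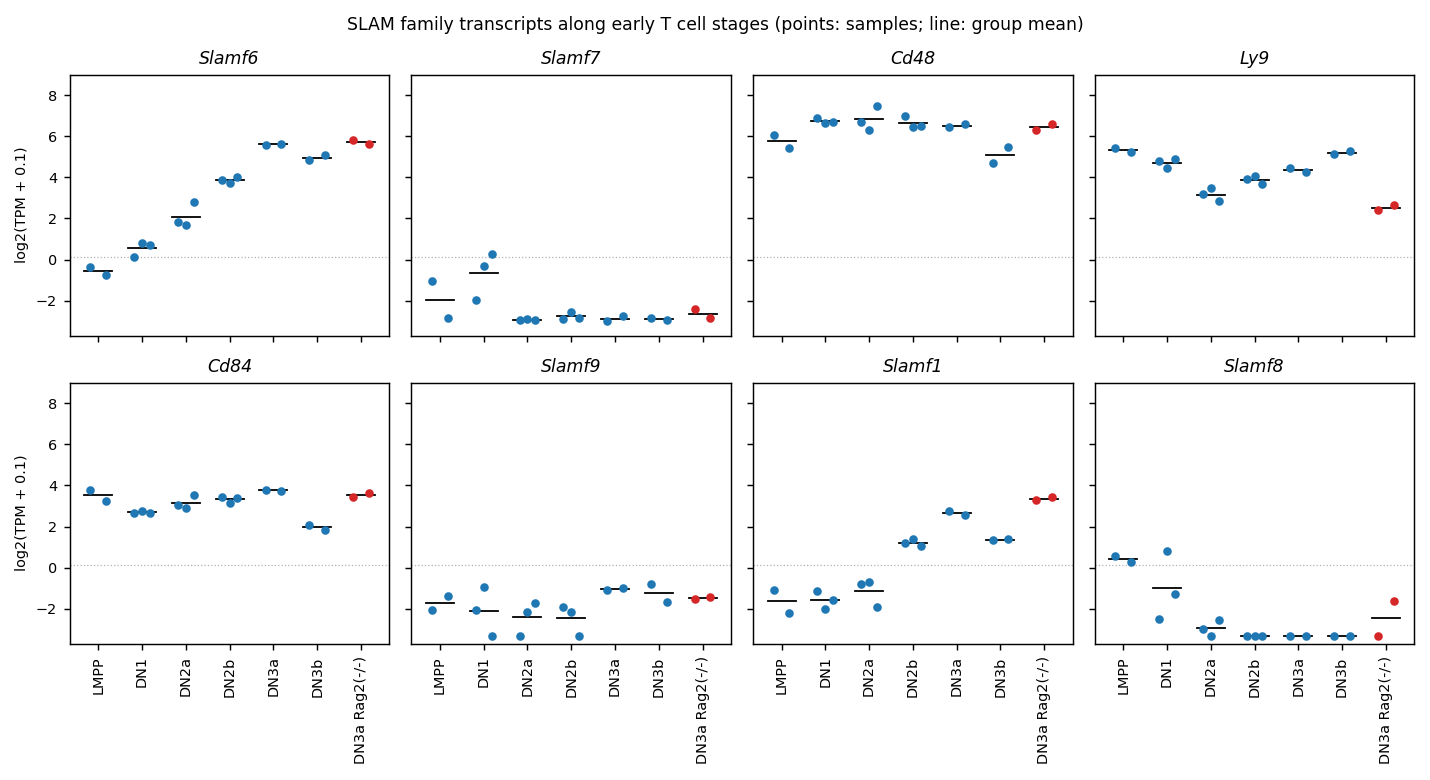
Levels of the 8 members in every T-lineage sample, as log2(TPM + 0.1), ordered by stage from LMPP to DN3b with Rag2(-/-) DN3a cells last. Points are samples, the short line is the group mean and the dotted line marks 1 TPM. Slamf6 climbs from 0.489 TPM at the lowest in LMPP to 48.1 and 49.0 TPM in DN3a, and Ly9 dips to 6.98 TPM in DN2a.

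Slamf6 rose at each of 4 steps. It was at 0.676 and 0.489 TPM in LMPP, 0.984, 1.66 and 1.52 in DN1, 3.39, 3.06 and 6.84 in DN2a, 14.3, 13.3 and 16.1 in DN2b and 48.1 and 49.0 in DN3a. No 2 neighbouring stages overlapped. The log2 fold changes were 1.11 ± 0.29 SE (adjusted p = 0.0167), 1.54 ± 0.26 SE (0.000669), 1.78 ± 0.26 SE (0.000278) and 1.73 ± 0.29 SE (0.000389). At the first step both groups are near or below 1.7 TPM, and the call was lost without LMPP sample 2 (adjusted p = 0.143), DN1 sample 1 (0.0555) or 1 of the 2 DN1 samples that share the number 2 in the labels (0.0611). From DN3a to DN3b, at 28.7 and 33.5 TPM, it did not pass (log2 fold change -0.65, 95% interval -1.34 to 0.05). Slamf1, the founding member, was low until DN2a (0.120 to 0.522 TPM), and rose to 2.21, 2.57 and 1.95 TPM in DN2b (log2 fold change 2.36 ± 0.36 SE, adjusted p = 0.000323) and to 6.66 and 5.70 TPM in DN3a (log2 fold change 1.43 ± 0.40 SE, adjusted p = 0.00993). It then fell to 2.42 and 2.50 TPM in DN3b (log2 fold change -1.29 ± 0.43 SE, adjusted p = 0.0222). The rise to DN3a missed the threshold without DN3a sample 1 (adjusted p = 0.0725) and the fall to DN3b without any 1 of the 4 samples of these stages (adjusted p = 0.0582 to 0.106) or with median-of-ratios scaling (0.068).

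Ly9 fell and came back. It was at 42.2 and 38.1 TPM in LMPP, 27.8, 21.8 and 29.2 in DN1 and 8.89, 11.1 and 6.98 in DN2a, and then at 15.1, 16.5 and 12.6 in DN2b, 21.5 and 19.2 in DN3a and 34.8 and 38.2 in DN3b. The fall to DN2a was 2.93-fold (log2 fold change -1.55 ± 0.17 SE, adjusted p = 1.88e-05), and the earlier fall to DN1 was 1.54-fold (log2 fold change -0.62 ± 0.19 SE, adjusted p = 0.0379). The latter call was lost without any 1 of the 5 samples of LMPP and DN1 except DN1 sample 1 (adjusted p = 0.0619 to 0.239), and narrowly without single samples of other stages. With the same-numbered DN1 samples averaged to 1 it was lost as well (adjusted p = 0.0593). Ly9 rose to DN2b (log2 fold change 0.73 ± 0.17 SE, adjusted p = 0.00879) and to DN3b (log2 fold change 0.84 ± 0.21 SE, adjusted p = 0.00418), and the step between them missed the threshold (log2 fold change 0.47 ± 0.19 SE, adjusted p = 0.0629). In Rag2(-/-) DN3a cells it was at 5.15 and 6.19 TPM, below both wild-type DN3a samples, a difference of 3.55-fold (log2 fold change -1.83 ± 0.21 SE, adjusted p = 7.89e-05).

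Cd48 and Cd84 changed most at the last step. Cd48 was at 67.0 and 43.3 TPM in LMPP and 117, 101 and 103 TPM in DN1, a rise of 1.98-fold (log2 fold change 0.99 ± 0.30 SE, adjusted p = 0.0351) whose call was lost without LMPP sample 2 (adjusted p = 0.271) or any 1 DN1 sample (0.0653 to 0.0994), and with the same-numbered DN1 samples averaged (0.0558). It stayed between 79.2 and 175 TPM through DN2a, DN2b and DN3a and was at 25.8 and 44.1 TPM in DN3b (log2 fold change -1.43 ± 0.33 SE, adjusted p = 0.00236). Cd84 fell from 13.7 and 9.35 TPM in LMPP to 6.14 to 6.63 TPM in DN1 (log2 fold change -0.83 ± 0.20 SE, adjusted p = 0.0105), a call lost without LMPP sample 1 (adjusted p = 0.189). It fell again from 13.6 and 13.2 TPM in DN3a to 4.14 and 3.44 TPM in DN3b (log2 fold change -1.80 ± 0.22 SE, adjusted p = 1.55e-05). The median of all genes moved by -0.41 between DN3a and DN3b on this scale, and both falls are larger than that shift.

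Slamf7, abundant in pro-B cells, was at 0.0268 to 1.11 TPM in every T-lineage sample, with its highest values in DN1 (0.157, 0.693 and 1.11 TPM). It passed the filter only through the DN1 sample at 1.11 TPM, so it entered the test through the stage where it was high. Its fall to 0.0288 to 0.0353 TPM in DN2a passed the test (log2 fold change -2.25 ± 0.55 SE, adjusted p = 0.0073). At such low levels the size depends on the pseudocount, and over the alternatives it ran from -3.60 to -0.64. Slamf8 was at 1.39 and 1.09 TPM in LMPP and 0.0765, 1.62 and 0.308 TPM in DN1. In all DN2b, DN3a and DN3b samples its entries were exactly 1 and were read as 0. It passed the filter only through the LMPP samples and the DN1 sample at 1.62 TPM. Its fall to DN2a passed (log2 fold change -1.95 ± 0.67 SE, adjusted p = 0.0369) but was lost without any 1 of the samples of DN1 and DN2a except DN1 sample 2a, the first of the pair numbered 2 (adjusted p = 0.0633 to 0.15). Where entries of exactly 1 were kept as 1 TPM and not read as 0, it changed sign. Slamf9 was at 0 to 0.473 TPM in every T-lineage sample.

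Counted over the stages, 4 of 7 members passed from LMPP to DN1 (2 higher, 2 lower, where 18.6% of 13482 genes passed), 4 from DN1 to DN2a (1 higher, 3 lower, against 33.7%), 3 from DN2a to DN2b (all higher, against 18.2%), 2 from DN2b to DN3a (both higher, against 45.8%) and 4 from DN3a to DN3b (1 higher, 3 lower, against 53.4%). Slamf7 and Slamf8, counted as lower at the step to DN2a, passed the filter only through LMPP or DN1 samples. Between Rag2(-/-) and wild-type DN3a cells 1 of 7 passed, Ly9, where 26.4% of genes passed. For the other members of that comparison the 95% intervals of the log2 difference were -0.59 to 0.80 for Slamf6, -0.80 to 0.63 for Cd48, -0.72 to 0.24 for Cd84 and -0.22 to 1.65 for Slamf1, which was at 9.73 and 10.6 TPM in Rag2(-/-) against 6.66 and 5.70 TPM in wild-type cells.

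The adaptors exchanged places along the stages. Sh2d1a rose from 0 to 0.196 TPM in LMPP to 1.03 to 1.31 in DN1, 1.78 to 5.44 in DN2a, 17.3 to 65.2 in DN2b and 115 to 117 in DN3a, and passed at each of these steps (adjusted p = 0.00122, 0.0482, 0.000151 and 0.0126), though the step to DN2a did not with same-numbered samples averaged. It was at 293 to 300 TPM in DN3b, but the step from DN3a to DN3b did not pass. Sh2d1b1 was at 3.67 to 4.90 TPM in DN1 and 4.72 to 8.59 TPM in DN2a and fell to at most 0.213 TPM in DN2b (log2 fold change -5.03 ± 0.45 SE, adjusted p = 3.43e-06). Cd244a fell from 27.6 to 36.0 TPM in DN2a to 3.10 to 5.74 in DN2b and 0.841 to 0.865 in DN3a. Of the 15 partner genes tested, 8 were higher and 1 lower from LMPP to DN1, where 18.6% of all genes passed. To DN2a 2 were higher and 8 lower (against 33.7%), and to DN2b 3 were higher and 4 lower (against 18.2%). To DN3a 7 were higher and 2 lower (against 45.8%), and to DN3b 1 was higher, Cd2, and 7 lower (against 53.4%). In Rag2(-/-) DN3a cells 1 was higher and 3 lower (against 26.4%).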

How the data were processed

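Poly(A) RNA-seq reads of the Pax5 samples were trimmed to 50 nt, aligned to GRCm38/mm10 with STAR 2.4.2a and counted per RefSeq gene by the authors, who deposited TPM values per gene. Per the submitters' processing notes Bowtie 1.0.0, SAMtools 1.9 and TopHat 1.4.1 were also used. In 8 samples the deposited rows carried no names and were matched by order. Deposited counts exist for 1 named and 1 unnamed sample: those of the named sample had the same zeros as its TPM values in all 25579 rows, and the gene lengths implied by both samples matched within 1% in 100% of 14405 rows, against 1.4% when shifted by 1 row. Whole reads were recovered from the TPM values of all 31 samples with gene lengths implied by these counts. T-lineage files (mm9, TopHat) gave 2 values per gene under a TPM heading, whose difference is not stated. Their mean was used, and entries of exactly 1 were read as 0. The upper value was 1.189 to 1.276 times the lower (median over genes). No counts or depth are known for these. No library pair agreed within sampling noise (lowest chi-square per degree of freedom 5.32).

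Log2(TPM + 0.1) was tested with limma 3.58.1 (R 4.3.3) with an intensity trend, on genes of at least 1 TPM in a sample, in 5 models: central domains with Pax5(+/+) samples 3 and 4 (8 samples), 1-allele mutants (13 samples), 2-allele mutants (17 samples), the Prd experiment (6 samples) and T-lineage stages (17 samples). The 1- and 2-allele models had a term for read length (50 or 100 nt). P-values were Benjamini-Hochberg adjusted over all genes of a comparison, with a threshold of 0.05. Alternatives were other pseudocounts, filters and scalings, no trend, edgeR 4.0.16 and DESeq2 1.42.0 on recovered reads, no read-length term, a replicate block and leaving out each sample. After seeing the data, averaging of same-numbered T-lineage samples and a block of consecutive library numbers were added. The scripts were tested on simulated data.

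The members and lists were chosen with earlier results of these data known. All 8 members are named, the 16 partner genes where they passed in Vav-Cre Pax5(fl/fl) or Pax5(DCRD1,2/-) cells, neighbours likewise, and the 3 genes most like each member above 5 TPM. Genes named outside this rule were chosen after their values were seen. The chromatin samples of the series were not used here. 1 marker gene is not reported here.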

Additional observations from a re-analysis of the deposited data

Results flagged for a closer look

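2 partner genes had a Pax5(+/+) sample that stood apart from the other 4 of the group, both at few reads. Sh2d1a, the gene of SAP, was at 0.0996 TPM (1 read) in sample 2 and at 0 in the others. Sh2d1b1, the gene of EAT-2, was at 0.413 TPM (15 reads) in sample 4 against 0.188 to 0.237 TPM (5 to 7 reads) in the others. The gap to the nearest sample exceeded the critical share of the range, 0.71 for 5 samples. Chance exceeds it in about 1 in 20 groups of normally distributed values, and 24 genes were looked at. For Sh2d1a, at 0 in all samples but 1, the gap equals the range by construction, so this rate does not apply. Sh2d1b2, at 0 in all 5 samples, gave no value.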

How the results depend on the processing

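For the 40 calls of a member in a comparison, 990 alternative values were computed. Of these 910 kept direction and call, 79 kept direction and missed the threshold, and 1 changed sign. This was Slamf8 from DN1 to DN2a, at 0.63 with entries of exactly 1 kept, since entries otherwise read as 0 then count as 1 TPM. The number of members that passed rose with count models, to 2 by DESeq2 in Pax5(DOP/DOP), 2 by edgeR and by DESeq2 in Pax5(DHD/DHD), 1 by either and under median-of-ratios scaling in Pax5(DOP,HD/DOP,HD), 3 under each of these in Pax5(DCRD1/-) and 1 by DESeq2 in Vav-Cre Pax5(Prd/fl) against Vav-Cre Pax5(fl/fl) cells. Smaller rises by count models, within 1.5 times, were to 3 in Pax5(DCRD1/DCRD1) and 4 in Pax5(DCRD1,2/DCRD1,2), Pax5(DCRD1,2/-), Vav-Cre Pax5(Prd/fl) and, in the second experiment, Vav-Cre Pax5(fl/fl) cells. In each of these comparisons the count models also called more genes than limma among all genes. Without the read-length term it was 4 in Pax5(DCRD1/-), 5 in Pax5(DCRD1,2/-), 5 in Pax5(DCRD1,2/DCRD1,2) and 2 in Pax5(DCRD1,2/DCRD1,2) against Pax5(DCRD1/DCRD1) cells. Between Pax5(DCRD1,2/-) and Pax5(DCRD1/-) cells 1 passed with a pseudocount of 1 or 0.01, no filter or no trend. From DN1 to DN2a 2 passed at a filter of 5 TPM, and in Rag2(-/-) DN3a cells 2 passed with a pseudocount of 1. The cause was not tested. Leaving out 1 sample gave 0 to 2 members in Pax5(DCRD1/-), 2 to 5 in Vav-Cre Pax5(fl/fl) (2 without its sample 2), 0 to 2 in Pax5(DCRD1,2/-) against Pax5(DCRD1/-), 1 to 3 in Pax5(DCRD1/DCRD1), 0 to 2 in Vav-Cre Pax5(Prd/fl) against Vav-Cre Pax5(fl/fl), 1 to 4 from LMPP to DN1, 2 to 5 from DN1 to DN2a and 1 to 3 from DN2b to DN3a. Where this left 1 sample in a group, it was assumed to vary like the other groups.

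Replicate numbers are shared between groups, but same-numbered samples did not deviate together throughout (r = -0.21 to 0.14 in the second experiment, -0.15 to 0.21 among the mutants, -0.78 to 0.47 in the T lineage), so the numbers are not shown to pair the samples. In the T lineage r was -0.78 for DN2a with DN2b, -0.48 for LMPP with DN2b and 0.47 for LMPP with DN2a. Samples of these stages thus shared deviations in sets that the replicate numbers do not mark. The main tests model no such sets. The library numbers form separate groups for LMPP to DN2b, for DN3a, for DN3b and for Rag2(-/-) DN3a samples. The steps to DN3a and to DN3b and the Rag2(-/-) comparison each run between such groups. With a replicate block 2 members passed between Pax5(DCRD1,2/-) and Pax5(DCRD1/-) cells, 2 in Vav-Cre Pax5(fl/fl) and 3 in Vav-Cre Pax5(Prd/fl) cells of the second experiment, and 3, 3, 3, 2, 4 and 1 over the T-lineage comparisons in order. Slamf9 (second experiment), Ly9 (DN1) and Slamf8 (DN2a) lost their calls. In 2 alternatives chosen after seeing the data, a block of the runs of consecutive library numbers, over LMPP to DN2b samples, gave 4, 5 and 3 members, and averaging same-numbered samples gave 2, 4, 3, 2, 5 and 1 over the T-lineage comparisons in order. Depth limits Slamf1, Slamf8 and Slamf9.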
